A study of Mus musculus with 5 samples.

Results

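Interleukin genes and the genes of their receptors are described here in peritoneal macrophages, the resident phagocytes of the abdominal cavity. Members were chosen by name, as the protein-coding genes whose symbol starts with Il and a digit, which gives 64 of the 30478 genes in the table. Sorted by symbol, 27 count as cytokines, 34 as receptor chains and 2 as an antagonist or binding protein (Il1rn and Il18bp). The remaining 1 encodes an enzyme named for its induction by IL-4 (Il4i1). The 34 include Il22ra2, whose product is a soluble binding protein for IL-22. Genes of the X chromosome, such as Il2rg, the common gamma chain, were not analysed here. Cells from C57BL/6 mice were isolated by flow cytometry, and their RNA was sequenced from strand-specific libraries. The 2 mutant libraries come from females of 8 weeks that are Samhd1 del/del and carry cGAS-GFP ki/ki as well. Of the 3 wild-type (wt) libraries, wt 1 comes from a male of 13 weeks, wt 2 from a female of 13 weeks and wt 3 from a female of 9 weeks. Every mutant library carries both alleles and comes from a younger mouse than any wt library, so the Samhd1 deletion, the cGAS-GFP allele and age cannot be told apart. The labels do not state how the cGAS-GFP allele is driven, how the cells were gated, or whether each library is its own animal, so the p-values describe the spread among these libraries, which may be technical. By its title, the study asks whether loss of SAMHD1 engages the RNA sensor MDA5 through cGAS and STING.

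Interleukins are secreted proteins through which leukocytes and tissue cells signal to each other, and each acts through receptor chains that several of them often share. Receptors of the IL-1 and IL-17 families signal through adaptor proteins to NF-kB, whereas those of the common gamma chain, IL-6, IL-12 and IL-10 families signal through Janus kinases and STAT factors. Macrophages both secrete and sense these proteins. The genes of the IL-1 receptor antagonist, IL-15 with its receptor alpha chain, IL-27 and IL-18 binding protein are known to be inducible by interferons.

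Depth was 27282354 to 28517346 recovered reads in the mutant libraries and 30026622 to 33119434 in the wt libraries. The targeted genes were low in the mutant: Samhd1 had 1279 and 1431 normalized counts against 16777 to 18274 in wt, and Cgas had 184 and 85.1 against 968 to 1211 in wt, where a normalized count is a gene's reads divided by the size factor of its library. Of 8 macrophage markers, all were tested, 2 rose (Lyz2 and Mertk), 1 fell (Fcgr1) and the others did not pass. The sum over all 8 was 457030 and 743720 in the mutant libraries and 269900 to 315550 in the wt libraries. Its largest part was Lyz2, with 286270 and 498770 in the mutant libraries and 115520 to 136780 in the wt libraries. Markers of other cells were also counted. The sum over 12 T, NK and innate lymphoid markers was 657 and 1242 in the mutant libraries and 259 to 338 in the wt libraries, most of it Cd4, while Cd3e, Cd3g, Cd3d, Trac and Thy1 had 0 to 2.78 in any library. Cd4 rose, with 633 and 1226 normalized counts in the mutant libraries and 309, 228 and 309.6 in the wt libraries (1.65, limma adjusted p = 0.0248). Sums over 9 B cell markers, most of them from Ighm, were 5504 and 6543 in the mutant libraries and 2617 to 3258 in the wt libraries. Mast cell markers, of which 4 of 8 are in the table, gave 67.5 and 55.3 in the mutant libraries and 93.3 to 117 in the wt libraries, with Ms4a2 at 0 in both mutants and under 1 in wt. Hdc, which makes histamine, fell, with 6.85 and 6.38 normalized counts in the mutant libraries and 46.4, 39.5 and 39.9 in the wt libraries (-2.35, limma adjusted p = 0.00388), and Kit did not pass (-0.11, limma adjusted p = 0.769). For 5 eosinophil markers the sums were 76.3 and 73.4 in the mutant libraries and 156 to 166 in the wt libraries, with Ear6 at 0 throughout. Those of 8 neutrophil markers overlapped, at 609 and 781 in the mutant libraries and 567 to 794 in the wt libraries. For 7 dendritic cell markers they were 211 and 310.4 in the mutant libraries and 268 to 317 in the wt libraries. Those of 8 mesothelial and stromal markers were 26.4 and 27.6 in the mutant libraries and 46.4 to 70.9 in the wt libraries. Of these, Krt18 and Krt19 were at 0. Sums over 6 erythroid and platelet markers, nearly all from Pf4, were 5190.5 and 4505 in the mutant libraries and 3124 to 4244 in the wt libraries. Hbb-bs and Hba-a1 had 0 to 1.06 in any library. Further markers that limma called were Ighm (1.16, limma adjusted p = 0.0105) and the platelet gene Ppbp (1.43, limma adjusted p = 0.0385), both higher in the mutant, and Ccr3 of the eosinophil list (-1.34, limma adjusted p = 0.0157), Ccr7 of the dendritic list (-1.18, limma adjusted p = 0.0305) and Col1a1 of the stromal list (-1.05, limma adjusted p = 0.0477), all lower. The 18S ribosomal RNA Rn18s took 4.04% to 5.28% of mutant reads and 0.599% to 1.64% of wt reads. The part of these differences in the results was not tested. In bulk samples, fewer cells of a type and less RNA per cell cannot be told apart.

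Receptor chains were the most abundant members. Levels are compared between genes as FPKM, the recovered reads per kilobase of deposited gene length and per 1e6 reads of the library. Of the 10 highest mean levels, 7 belonged to receptor chains and 3 to cytokines, and 26 of 64 members averaged at least 1 FPKM. Il10ra, the ligand-binding chain for the anti-inflammatory cytokine IL-10, had 39.9 and 59.3 FPKM in the mutant libraries and 40.02, 31.7 and 42.5 FPKM in the wt libraries. Il10rb, its partner chain that also serves IL-22, had 40.5 and 43.98 FPKM in the mutant libraries and 40.8, 42.1 and 40.3 FPKM in the wt libraries. Both chains overlapped between the groups. Il7r, the receptor for the lymphoid growth factor IL-7, had 32.7 and 31.6 FPKM in the mutant libraries and 49.3, 45.4 and 51.9 FPKM in the wt libraries. Il6st, the signalling chain gp130 of the IL-6 family, had 42.2 and 47.8 FPKM in the mutant libraries and 37.4, 33.7 and 39.7 FPKM in the wt libraries. Within groups, Il7r was the lowest of these 4 genes in both mutants and the highest in each wt library. Il10rb was below Il6st in both mutants and above it in each wt library, and Il10ra had no fixed place beside either.

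Further receptor chains came next by mean level, although in mutant 2 Il4ra matched Il7r. Il4ra, the chain that binds IL-4, had 23.8 and 31.8 FPKM in the mutant libraries and 18.3, 17.1 and 17.8 FPKM in the wt libraries. Il6ra, which binds IL-6, had 21.5 and 30.7 FPKM in the mutant libraries and 17.6, 15.8 and 18.6 FPKM in the wt libraries. Il3ra, the alpha chain for IL-3, had 20.7 and 27.4 FPKM in the mutant libraries and 16.8, 16.4 and 17.02 FPKM in the wt libraries. Each of these 3 genes was higher in both mutants than in any wt library, and higher in mutant 2 than in mutant 1. Among cytokines, Il15, a growth factor of NK cells and memory T cells, had 10.7 and 13.3 FPKM in the mutant libraries and 14.3, 13.1 and 11.8 FPKM in the wt libraries. Il18, whose product is cleaved by caspase 1, had 7.01 and 8.11 FPKM in the mutant libraries and 10.2, 10.4 and 10.05 FPKM in the wt libraries. Il10 had 2.46 and 13.9 FPKM in the mutant libraries and 9.10, 3.99 and 8.06 FPKM in the wt libraries. Groups overlapped for Il15 and Il10, while Il18 was lower in both mutants than in any wt library, and the mutant libraries of Il10 stood on either side of all wt libraries.

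**Figure D1:**
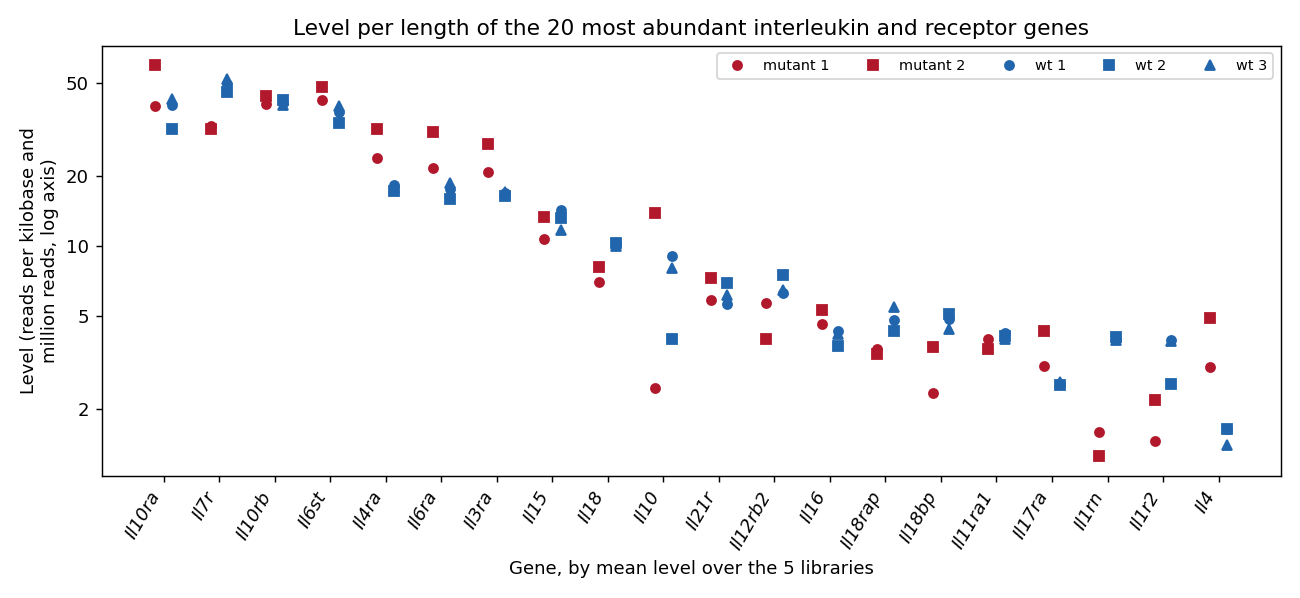
Level per length (FPKM, log axis) of the 20 members with the highest mean over the 5 libraries, each point 1 library, mutants in red to the left of wt in blue. The 7 genes with the highest means are receptor chains, Il7r is higher in each wt library than in either mutant, and Il10 shows mutants at 2.46 and 13.9 FPKM.

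Of the 64 members, 37 reached 10 normalized counts in at least 2 libraries and were tested. Limma, fitted to log2(normalized count + 2) with an intensity trend and adjusted by Benjamini-Hochberg over all 14977 genes tested, called 5 members higher and 3 lower in the mutant at a threshold of 0.05. These 8 are 21.6% of the members tested, where 8.6% of all genes tested were called (3.71% higher and 4.89% lower). The groups did not overlap for 23 members (62.2%), where 51.3% of all genes did not. At an unadjusted limma p under 0.05 there were 11 higher and 11 lower, or 59.5%, where 31.5% of all genes passed. The median log2 fold change was -0.07 over the members tested and 0.00033 over all genes, and 18 members were positive and 19 negative. All changes given are log2 fold changes, mutant over wt, of the normalized count + 2, which makes changes of sparsely read genes look smaller. In the authors' deposited table, 12 members had an adjusted p below 0.05, 7 higher and 5 lower in the mutant, where 7.17% of its rows and 14.6% of the genes tested here did. It shares 7 genes with the limma calls, 87.5% of the limma calls and 58.3% of its own, and both rest on these libraries. The limma call it lacks is Il17rb, with an adjusted p of 0.467 in the authors' deposited table. DESeq2 on the recovered reads called 15 members, 8 higher and 7 lower, all 8 limma calls among them. These are 45.5% of the 33 members to which DESeq2 gave an adjusted p, where 18.8% of all such genes were called. Without wt 1, wt 2 or wt 3, limma called 1, 2 and 1 members, beside 1.37%, 2.47% and 1.45% of all genes. It called 18 members without mutant 1 and 11 without mutant 2, beside 34% and 9.07% of all genes. With a mutant left out, 1 mutant library remains and is assumed to vary like the wt libraries. The p-values of such fits do not measure the spread between mutants. Il4ra (Gm44876), Il17rb (Actr8), Il18bp (Numa1), Il3ra (Gm48860) and Il6ra (Gm42809) overlap the gene in brackets on the other strand. So do Il12rb2 (Serbp1), Il18 (Bco2 and Tex12), Il1b (Il1bos), Il1r2 (Gm16894), Il1rap (Gm20319), Il7 (Gm16685), Il27 (Apobr) and Il27ra (Palm3). Il10ra, Il16 and Il11ra1 have such overlaps too. Since the strand setting of the counting is not stated, reads of such pairs may not have been told apart. On the same strand, Il1r1, Il1r2, Il2ra, Il10ra and Il16 overlap another gene, as do members named below. Gene positions are those of GENCODE M21.

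**Figure D2:**
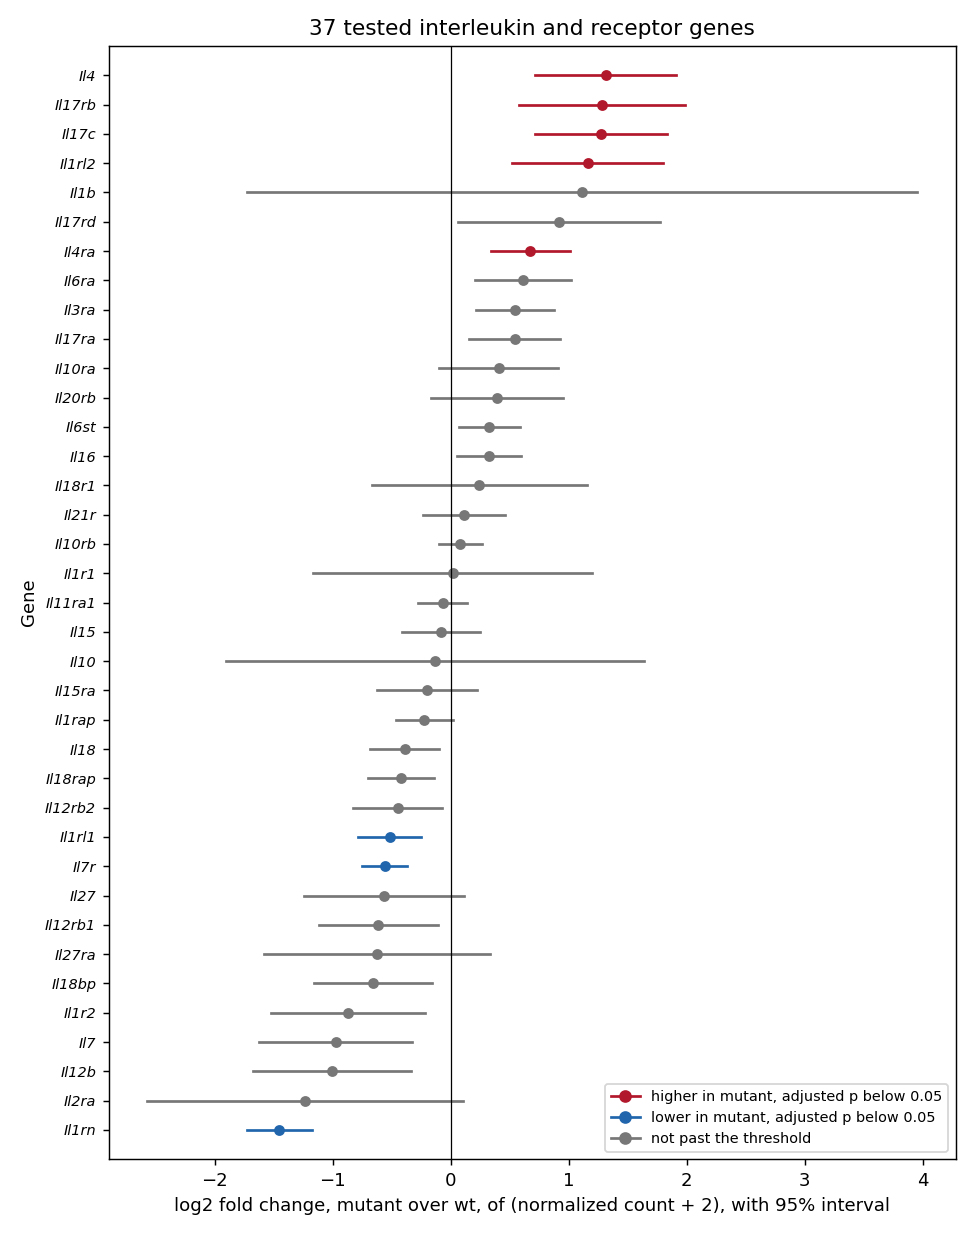
Log2 fold change, mutant over wt, of each of the 37 tested members (points) with its 95% interval from limma (lines), in red where higher, blue where lower and grey where not past the threshold. Il1rn stands lowest at -1.45 and Il4 highest at 1.31, and the interval of Il1b reaches from -1.72 to 3.95.

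Promoters are shown for the called members that hold letters of an interferon-stimulated, STAT or STAT6 element. Letters of NF-kB sites were not searched. RefSeq windows from 250 bases before to 50 after a gene start (GRCm38.p6) were found for 49 of the 64 members, and 9 of the 37 tested members had none. The letters searched, on both strands, were GAAANNGAAA for the interferon-stimulated element, TTCNNNGAA for the STAT element and TTCNNNNGAA for the STAT6 element. They occurred in 3.44%, 8.30% and 6.95% of all 32851 windows. Of the 28 tested members with a window, 2, 5 and 5 held them, where 3.99%, 9.55% and 8.01% of all 27025 genes did. Il1rn, Il4 and Il7r were the called members with a match, and 1 window of each is given, as the 250 bases before the start in the direction of transcription, with matches in capitals. That of Il1rn lies at chr2:24345041-24345290 (plus strand), before a start inside the gene, and holds the STAT6 letters. That of Il4 lies at chr11:53618666-53618915 (minus strand) and holds first the interferon-stimulated letters, read on the opposite strand, and then the STAT6 letters, with no overlap between them. That of Il7r lies at chr15:9529877-9530126 (minus strand), also before a start inside the gene, and holds the STAT letters.
Il1rn: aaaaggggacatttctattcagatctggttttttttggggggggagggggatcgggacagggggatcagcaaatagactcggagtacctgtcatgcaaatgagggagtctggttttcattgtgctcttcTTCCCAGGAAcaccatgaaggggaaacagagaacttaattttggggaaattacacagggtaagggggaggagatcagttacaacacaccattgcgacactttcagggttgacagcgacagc
Il4: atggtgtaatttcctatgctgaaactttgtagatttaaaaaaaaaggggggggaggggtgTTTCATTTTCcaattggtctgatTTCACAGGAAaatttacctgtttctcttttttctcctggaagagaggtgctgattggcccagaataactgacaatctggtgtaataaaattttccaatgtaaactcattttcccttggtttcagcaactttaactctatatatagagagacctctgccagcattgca
Il7r: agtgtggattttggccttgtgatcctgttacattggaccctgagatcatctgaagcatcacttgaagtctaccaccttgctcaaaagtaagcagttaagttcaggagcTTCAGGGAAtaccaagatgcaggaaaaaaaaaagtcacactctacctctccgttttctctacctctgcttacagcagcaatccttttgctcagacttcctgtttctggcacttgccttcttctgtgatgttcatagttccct
A match describes letters only, and binding was not measured.

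Among the cytokines and antagonists of the IL-1 family, Il1rn fell and the other 3 tested genes did not pass. Il1rn (GRCm38 chr2:24336853-24351494) encodes the IL-1 receptor antagonist, which occupies the receptor without signalling. It had 247 and 202 normalized counts in the mutant libraries and 607, 622 and 613 in the wt libraries, or 224 ± 31.5 (SD, n = 2) in the mutant and 614 ± 7.59 (SD, n = 3) in wt. Each mutant library lay well below the lowest wt library. On the log2 scale the change was -1.45 (SE 0.114, limma adjusted p = 0.00123), a level 2.73 times lower in the mutant, and it passed without each library in turn (limma adjusted p = 2.2e-05 to 0.021). Il18 had 202 and 242 normalized counts in the mutant libraries and 288, 295 and 288 in the wt libraries. Its groups did not overlap, yet its change of -0.39 (limma adjusted p = 0.093) did not pass. The change was -0.26 without mutant 1 and -0.52 without mutant 2. Il18bp, whose secreted product neutralises IL-18, had 199 and 323 normalized counts in the mutant libraries and 406, 427 and 373 in the wt libraries. Here too both mutants were below wt without passing, at -0.66 (limma adjusted p = 0.0958), while DESeq2 called Il18bp (adjusted p = 0.0474). The change was -0.31 without mutant 1 and -1.01 without mutant 2.

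Il1b, a pyrogenic cytokine, differed most between the mutant libraries. It had 21.5 and 407 normalized counts in the mutant libraries and 47.3, 20.6 and 81.6 in the wt libraries. Mutant 1 lay within the wt range, and mutant 2 was 18.9 times mutant 1. The log2 fold change of 1.11 had a 95% interval of -1.72 to 3.95 (limma adjusted p = 0.551). Without mutant 2 it was -0.95 (limma adjusted p = 0.395), and without mutant 1 it was 3.17 (limma adjusted p = 0.00416), a fit in which the lone mutant library is assumed to vary like the wt libraries. Il1a was too sparse for the test, at 3.91 and 7.44 normalized counts in the mutant libraries and 0.829, 0 and 2.78 in the wt libraries.

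All 7 receptor genes of the IL-1 family were tested, of which Il1rl2 rose and Il1rl1 fell. Il1rl1 (GRCm38 chr1:40429570-40465415) encodes ST2, the receptor for IL-33, and had 313 and 365 normalized counts in the mutant libraries and 502, 499.8 and 455 in the wt libraries. Neither mutant library reached the lowest wt library, for a log2 change of -0.52 (SE 0.111, limma adjusted p = 0.042). Il1rl2 (GRCm38 chr1:40324610-40367562), which encodes the receptor for IL-36, had 71.4 and 81.9 normalized counts in the mutant libraries and 36.5, 24.2 and 40.8 in the wt libraries. Both mutants exceeded the highest wt library, at a mean level of 0.266 FPKM, and the log2 change came to 1.16 (SE 0.265, limma adjusted p = 0.049). A pseudogene, Gm17970, overlaps Il1rl2 on the same strand, so its count is uncertain. Il18rap, an accessory chain for IL-18, had 680.1 and 673 normalized counts in the mutant libraries and 895, 809 and 1031 in the wt libraries. Il1r2, a decoy receptor for IL-1, had 78.3 and 121 normalized counts in the mutant libraries and 207, 136 and 208 in the wt libraries. Both had non-overlapping groups, with fold changes of -0.42 (limma adjusted p = 0.0727) and -0.87 (limma adjusted p = 0.092) that did not pass by limma, and DESeq2 called both lower (adjusted p = 0.0336 and 0.0285). Il1rap, Il18r1 and Il1r1 did not pass at -0.22, 0.24 and 0.02 on the log2 scale. The call of Il1rl1 was lost on leaving out any wt library (wt 1 to 3 in order, limma adjusted p = 0.172, 0.14 and 0.134). That of Il1rl2 was lost on leaving out the same libraries in that order (0.153, 0.103 and 0.12) or mutant 2 (0.1), and after TMM scaling (0.0505).

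In the common gamma chain family, Il4 and Il4ra rose and Il7r fell. Il4 (GRCm38 chr11:53602982-53618669), the cytokine of type 2 immunity whose promoter letters are given above, had 104 and 174 normalized counts in the mutant libraries and 55.5, 55.6 and 48.2 in the wt libraries. The lower mutant library stood above every wt library, and the log2 change came to 1.31 (SE 0.249, limma adjusted p = 0.0305). Il4ra (GRCm38 chr7:125552120-125579474) had 3987 and 5544 normalized counts in the mutant libraries and 3021, 2842 and 2969.8 in the wt libraries. Its groups did not overlap either, with a log2 fold change of 0.68 (SE 0.138, limma adjusted p = 0.0375), made up of 0.44 in mutant 1 and 0.91 in mutant 2. T cells and mast cells are known sources of IL-4. Over the 12 T, NK and innate lymphoid markers and the 8 mast cell markers, with sums given above, Cd4 rose and Hdc fell. Cd3e and Cpa3 had 0 to 2.69 in any library, and Lck and Kit were tested and did not pass. Lck had 7.83 and 5.32 normalized counts in the mutant libraries and 17.4, 21.5 and 16.7 in the wt libraries (-1.27, limma adjusted p = 0.0528). The part of these markers in the Il4 and Il4ra results was not tested. Neither gene was called on leaving out any wt library (wt 1 to 3 in order, limma adjusted p = 0.132, 0.103 and 0.133 for Il4 and 0.146, 0.133 and 0.143 for Il4ra). Il13, which encodes a cytokine related to IL-4, had 4 reads and 1 read in mutants 1 and 2 and 0 reads in each wt library, which allows up to 3.

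Il7r (GRCm38 chr15:9505788-9530176) had 4254 and 4276 normalized counts in the mutant libraries and 6314, 5859 and 6734 in the wt libraries. The mutant libraries were nearly alike and below every wt library, giving a log2 change of -0.56 (SE 0.0789, limma adjusted p = 0.0127), a level 1.48 times lower. It was lost on leaving out wt 1 or wt 3 (limma adjusted p = 0.0949 and 0.0807). Il7, which encodes its ligand, had 10.8 and 9.57 normalized counts in the mutant libraries and 22.4, 25.1 and 18.5 in the wt libraries, a change of -0.97 (limma adjusted p = 0.0739) that did not pass. Il15 had 676 and 873 normalized counts in the mutant libraries and 889.5, 822 and 741 in the wt libraries. Its groups overlapped, and the change of -0.09 had a 95% interval of -0.42 to 0.25 (limma adjusted p = 0.702). For Il15ra the change was -0.20 with an interval of -0.63 to 0.23 (limma adjusted p = 0.471). Il21r (0.11) and Il2ra (-1.24) did not pass, and Il2ra had 15.7 and 3.19 normalized counts in the mutant libraries and 24.9, 23.3 and 14.8 in the wt libraries.

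**Figure D3:**
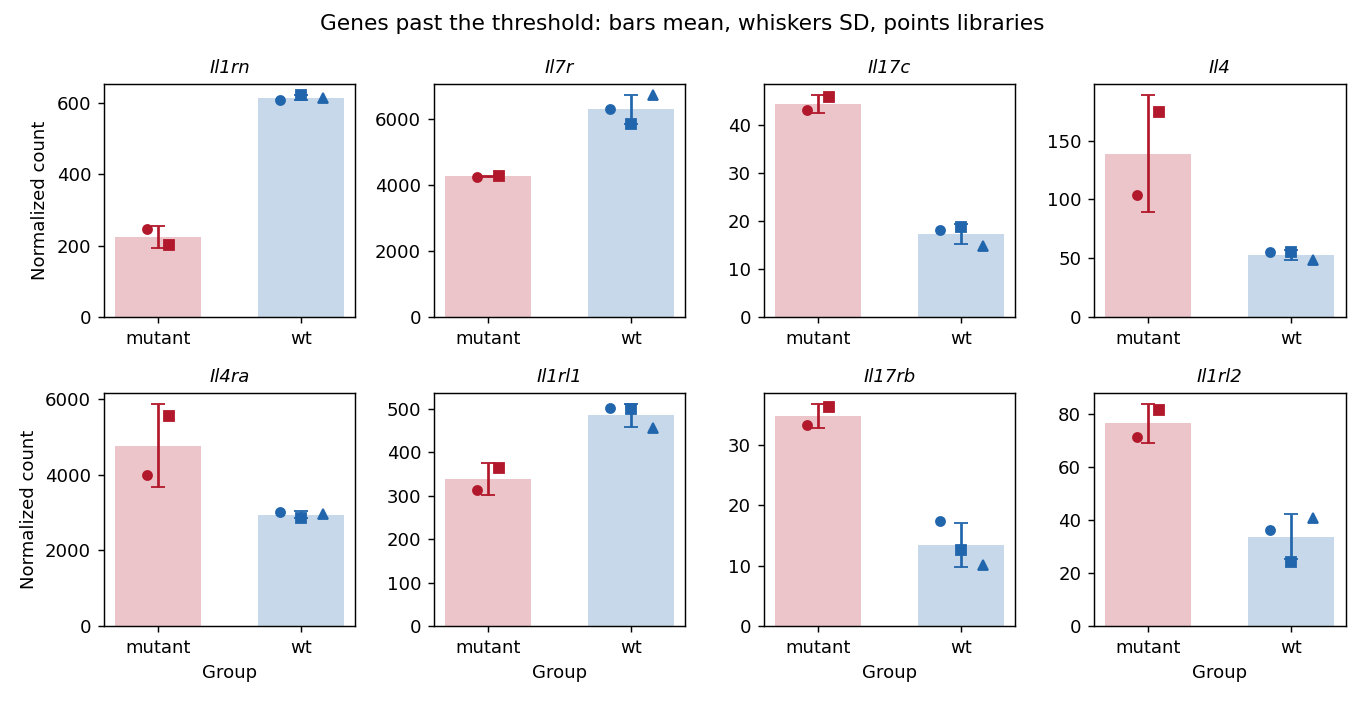
Normalized counts of the 8 members past the threshold, mutant to the left of wt in each panel, with bars for the mean, whiskers for the SD (n = 2 mutant, n = 3 wt) and points for the libraries. In each panel both mutant points lie on the same side of all wt points.

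Cytokine genes of the IL-6 and IL-12 families were sparse and several of their receptors abundant, and none of the 8 tested passed by limma. By DESeq2, Il12b and Il6ra did, and 5 of the 8 had an unadjusted limma p under 0.05 (Il12b, Il6ra, Il6st, Il12rb1 and Il12rb2). Il12b, the p40 subunit of IL-12 and IL-23, had 15.7 and 25.5 normalized counts in the mutant libraries and 45.6, 45.8 and 36.1 in the wt libraries. Its groups did not overlap, and its change was -1.01 (SE 0.276, limma adjusted p = 0.0731). It was called by DESeq2 (adjusted p = 0.0495), and the change was -0.69 without mutant 1 and -1.33 without mutant 2. Il27 had a change of -0.57 (limma adjusted p = 0.22). Il6 had 1.96 and 7.44 normalized counts in the mutant libraries and 3.32, 6.28 and 6.49 in the wt libraries, too few for the test.

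On the receptor side, Il6ra had 5189.5 and 7704 normalized counts in the mutant libraries and 4183, 3788 and 4464 in the wt libraries. Il6st had 13072 and 15394 normalized counts in the mutant libraries and 11407, 10329 and 12263 in the wt libraries. Both were higher in each mutant than in any wt library, at 0.61 (limma adjusted p = 0.0743) and 0.33 (limma adjusted p = 0.102). DESeq2 called Il6ra (adjusted p = 0.0103). For Il6ra and Il6st the changes were 0.90 and 0.45 without mutant 1, and 0.33 and 0.21 without mutant 2. The IL-12 receptor chains Il12rb1 and Il12rb2 were lower in each mutant than in any wt library, at -0.61 (limma adjusted p = 0.11) and -0.45 (limma adjusted p = 0.114). Without mutant 1 the changes of Il12rb1 and Il12rb2 were -0.37 and -0.68, and without mutant 2 they were -0.86 and -0.22. Il11ra1 (-0.07) and Il27ra (-0.62) did not pass. The count of Il11ra1 is uncertain, since Galt overlaps it on the same strand and Il11ra2 is a near-identical copy.

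Il3ra was the 1 tested gene of 6 in the type 2 and beta common group. It had 1711 and 2355 normalized counts in the mutant libraries and 1372, 1348 and 1405 in the wt libraries. Both mutants exceeded each wt library, and the change of 0.55 (SE 0.135, limma adjusted p = 0.0588) did not pass. The change was 0.78 without mutant 1 and 0.31 without mutant 2, and DESeq2 called the gene (adjusted p = 0.00692).

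None of the 4 tested genes of the IL-10 family passed by limma or DESeq2, nor at an unadjusted limma p under 0.05. Il10 had 90.03 and 528 normalized counts in the mutant libraries and 327, 144 and 294 in the wt libraries. Mutant 2 was 5.87 times mutant 1, and the change of -0.13 had a 95% interval of -1.90 to 1.63. Il10ra had 3892 and 6016 normalized counts in the mutant libraries and 3843, 3063 and 4140.5 in the wt libraries. Its groups overlapped, at 0.41 (limma adjusted p = 0.232), and the change was 0.72 without mutant 1 and 0.09 without mutant 2. Il10rb had 4301 and 4858 normalized counts in the mutant libraries and 4267, 4429 and 4267 in the wt libraries. The change of 0.08 had a 95% interval of -0.10 to 0.27, and Gm21970 overlaps this gene on the same strand. Il20rb, a chain of the receptors for IL-20 and IL-24, had a change of 0.39 (limma adjusted p = 0.296).

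In the IL-17 family, 2 of 4 tested genes rose. Il17c (GRCm38 chr8:122422020-122423639), a cytokine gene known mainly from epithelial cells, had 43.1 and 45.7 normalized counts in the mutant libraries and 18.2, 18.8 and 14.8 in the wt libraries. The mutant libraries were alike and above every wt library, and the log2 change came to 1.27 (SE 0.232, limma adjusted p = 0.0283). Its count is uncertain because Gm20388, also protein-coding, overlaps it on the same strand. Il17rb (GRCm38 chr14:29996135-30008896), which encodes a receptor chain for IL-25, had 33.3 and 36.1 normalized counts in the mutant libraries and 17.4, 12.6 and 10.2 in the wt libraries. Again both mutants exceeded every wt library, at a mean level of 0.21 FPKM, with a log2 fold change of 1.28 (SE 0.291, limma adjusted p = 0.0488). Il17ra, the chain shared across the family, had 745 and 1084 normalized counts in the mutant libraries and 613, 608 and 630.3 in the wt libraries. Its groups did not overlap, at 0.54 (limma adjusted p = 0.083), and it was called by DESeq2 (adjusted p = 0.0202). The change was 0.81 without mutant 1 and 0.27 without mutant 2. Il17rd had a change of 0.92 (limma adjusted p = 0.14). The calls of Il17c and Il17rb were lost on leaving out any wt library (wt 1 to 3 in order, limma adjusted p = 0.119, 0.0799 and 0.12 for Il17c and 0.108, 0.14 and 0.157 for Il17rb) or mutant 2 (0.0721 and 0.12). That of Il17rb was also lost after TMM scaling (0.0502). Outside these families, the chemoattractant gene Il16 had a change of 0.33 (limma adjusted p = 0.11).

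The 27 members that were not tested had 0 to 9.57 normalized counts in any library. Of them, 19 had 10 or fewer reads over the 5 libraries together, and Il5 and Il22 had 0 reads in each, which allows up to 3 reads or 0.0906 to 0.11 reads per 1e6. They include the cytokine genes Il1f9, Il2, Il5, Il11, Il12a, Il13, Il17b, Il17d, Il17f, Il19, Il22, Il23a, Il24, Il31 and Il34, besides Il1a and Il6. The others are the enzyme gene Il4i1 and, of the genes sorted as receptor chains, Il2rb, Il5ra, Il9r, Il11ra2, Il17rc, Il17re, Il22ra2, Il23r and Il31ra. In a limma fit with no minimum, 25 of them had a value, 0 were called, and Il13 (1.09) and Il1a (1.32) had an unadjusted p under 0.05. The normalized counts of Il1a, Il4i1, Il13, Il2rb and Il11ra2 did not overlap between groups, at 8 or fewer reads in any library. Il11ra2 had 1 read in each mutant and in wt 1, so only the size factors separate these libraries. The share of such separation over all genes this sparse was not counted.

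The mutant libraries differed more from each other over these genes than over the whole table. The median absolute log2 difference between mutant 2 and mutant 1 was 0.454 over the 37 members and 0.233 over all genes tested. Mutant 2 was the higher for 29 members, or 78.4%, where it was for 50.6% of all genes. For 7 members (Il10rb, Il1b, Il21r, Il18r1, Il15, Il10 and Il1r1) the mutants lay on opposite sides of the wt mean, or 18.9%, where 25% of all genes did.

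**Figure D4:**
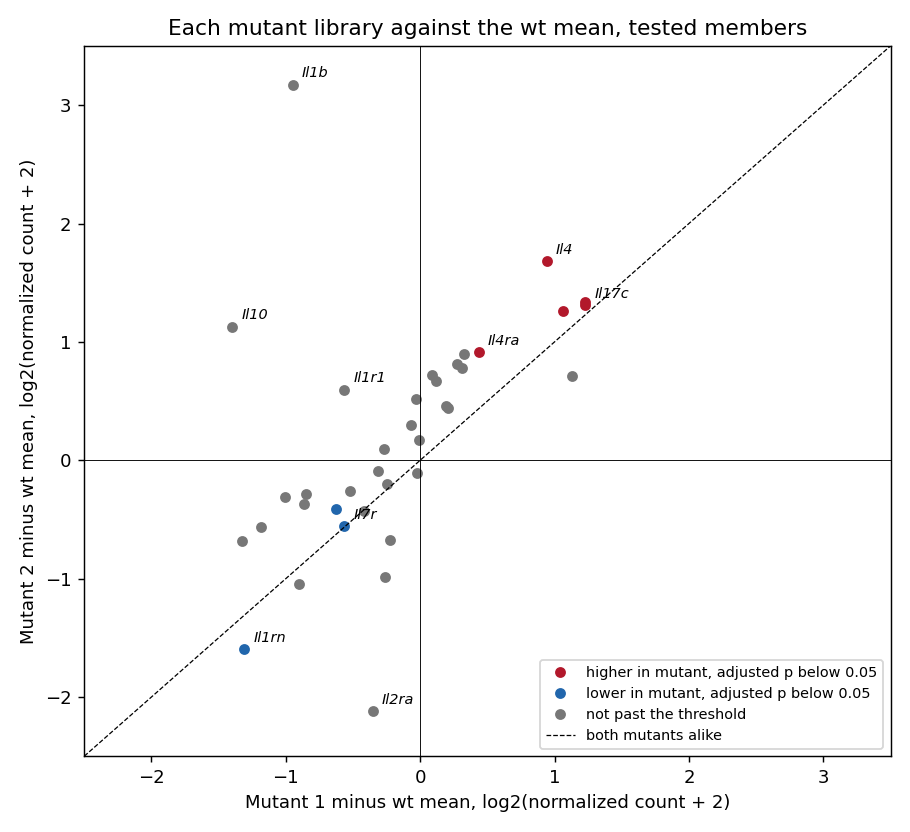
Each tested member as its log2(normalized count + 2) in mutant 1 (horizontal axis) and in mutant 2 (vertical axis), both minus the wt mean, with a dashed line where the mutants are alike. Most points lie above the line, 29 of 37 being higher in mutant 2, and Il1b (-0.95 and 3.17) and Il10 (-1.40 and 1.13) stand far from it.

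Genes that work with these members were counted from lists of partners and targets. Of 75 tested, 3 rose and 9 fell, or 16%, where 8.6% of all genes were called, with a median log2 fold change of 0.05. In IL-1 processing and signalling, 3 of 15 fell: Casp1, the protease that matures IL-1 beta and IL-18 (-0.58, limma adjusted p = 0.00869), the inflammatory caspase Casp4 (-0.57, limma adjusted p = 0.0489) and the adaptor Myd88 (-0.33, limma adjusted p = 0.043). Casp1 had 1917 and 1817 normalized counts in the mutant libraries and 2888, 2813 and 2663 in the wt libraries, without overlap. Among 19 kinases, STATs and feedback genes, 4 fell and 1 rose. Those that fell include Stat2, which had 2604 and 1583 normalized counts in the mutant libraries and 6781, 8364 and 7099 in the wt libraries (-1.86, limma adjusted p = 0.00613), the inhibitor Socs1 (-1.02, limma adjusted p = 0.0338) and the phosphatase Ptpn6 (-0.32, limma adjusted p = 0.0401). The adaptor Sh2b3 rose (0.34, limma adjusted p = 0.0318). Limma called 0 of 12 further receptor chains and cytokines and 0 of 8 IL-17 signalling genes, of which 5 and 1 had an unadjusted limma p under 0.05. DESeq2 called 22 of the 70 to which it gave an adjusted p, where 18.8% of all such genes were called.

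Of 12 tested target genes of IL-4 and IL-13, which drive alternative activation of macrophages, 1 rose and 1 fell. The mannose receptor gene Mrc1 had 80748 and 73276 normalized counts in the mutant libraries and 48100, 58596 and 49536 in the wt libraries (0.57, limma adjusted p = 0.0383). The chemokine gene Ccl22 had 56.8 and 72.3 normalized counts in the mutant libraries and 129, 126 and 127 in the wt libraries (-0.97, limma adjusted p = 0.0228). Of the others, only Egr2 (1.38, limma adjusted p = 0.05003) and Ccl24 (1.35, limma adjusted p = 0.0792) had an unadjusted limma p under 0.05. The median log2 fold change over this list was 0.417. Of 10 target genes of IL-10, the scavenger receptor gene Cd163 rose (1.45, limma adjusted p = 0.00889) and Tnip3, an inhibitor of NF-kB signalling, fell (-0.85, limma adjusted p = 0.00347). Among the rest of that list, only Hmox1 (0.43, limma adjusted p = 0.05003) had an unadjusted limma p under 0.05. Stat2 and Tnip3 were called without each library in turn. Casp4, Myd88, Socs1, Sh2b3, Mrc1, Ccl22 and Cd163 were each lost on leaving out wt 1, wt 2 or wt 3, and Casp1 on leaving out wt 1 or wt 3. Socs1 was lost in 4 of the 5 fits that leave out 1 library, so also without a mutant library. The number called was 3 without wt 1, 5 without wt 2, 3 without wt 3 and 38 without mutant 1, against the shares of all genes given above for those fits.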

How the data were processed

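Per the submitters' processing notes, the tools STAR, featureCounts, Subread and DESeq 1.6.1 and the build mm10 were named, without roles. Neither annotation release nor strand setting is stated there. The signal the authors deposited per library is a gene's read count over 1 size factor, judged from the values: dividing by the worth of 1 read left 100% of them whole to within 0.001. The authors' deposited log2 fold change is wt over mutant, as 100% of their calls have that sign, and their deposited p-values come from a fit that included further libraries, since their mean is above 0 for all 3266 genes with 0 reads here. A second deposited table repeats 2185 rows of the first and was not used. Deposited gene lengths were used for FPKM.

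The members and gene lists were chosen with earlier results of these data known. Limma 3.58.1 (R 4.3.3) with an intensity trend was fitted on log2(normalized count + 2) to genes with at least 10 in 2 or more libraries, two-sided, with Benjamini-Hochberg adjustment and a threshold of 0.05. The alternatives were edgeR 4.0.16, DESeq2 1.42.0 and limma-voom on recovered reads, other pseudocounts and minimums, TMM scaling, a robust prior, a replicate block and leaving out each library. Floors cover counting error only. Chi-square values per gene averaged 53.7 for the mutant pair and 12.6 to 22.9 for wt pairs, more than counting noise gives, so no libraries were merged. Whether they are separate animals is not shown by this. By rule, values in every library are given for called members, for members with separate groups and a log2 fold change of 1 or more in size, and for the 10 highest levels, and up to 4 called genes per other list are named, apart from values not reported here. Il1b, Il18bp, Il18rap, Il1r2, Il17ra, Il7, Il2ra, Il1a, Il6 and Il13 were given in full after their values were seen. Deposited coordinates do not match GRCm38 and are not printed. Gene positions are from GENCODE M21, matched by Ensembl identifier.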

Additional observations from a re-analysis of the deposited data

How the results depend on the processing

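Only 2 mutant libraries stand behind each call, Il1rn is the 1 member called without each library in turn, and 27 members are too sparse to test. The 5 members higher and 3 lower became 3 and 3 with a pseudocount of 0.5, TMM scaling or a minimum of 50, 2 and 3 with no minimum, and 8 and 7 by DESeq2. With edgeR, limma-voom, a robust prior or a pseudocount of 8, the same 8 genes were called. Il1rl2 and Il17rb were lost with a pseudocount of 0.5 and with TMM scaling. With no minimum, Il1rl2, Il17c and Il17rb were lost, and a minimum of 50 left Il17c and Il17rb untested. Leaving out 1 library gave 0 to 12 higher and 1 to 8 lower. Over all genes, 556 higher and 732 lower became 1121 and 1308 by DESeq2, and 29 to 2062 and 173 to 2929 without 1 library, while the share of calls that were higher, 43.2%, became 14.4%, 21.9% and 17.3% without wt 1, wt 2 and wt 3. The 12 partners and targets called became 22 by DESeq2 and 3 to 38 without 1 library. With the replicate number as a block, limma called 0 members higher and 0 lower (15 at an unadjusted p under 0.05), 6 and 75 of all genes, and 1 partner or target. Over 14977 genes, deviations of mutant 1 from its group mean correlated with those of wt 1, wt 2 and wt 3 at r = -0.228, 0.362 and -0.218, and those of mutant 2 mirror them, since 2 libraries deviate oppositely from their mean. Each same-numbered pair was negative and differs in age, and the labels give the samples only a number. With 2 mirrored mutant libraries, these correlations cannot show whether same-numbered libraries were handled together. The cause of these differences was not tested.

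Log2 fold changes of members that did not pass changed sign in 12 cases. Leaving out 1 library gave -0.0066 to 0.17 for Il10rb, -0.27 to 0.10 for Il15, -0.071 to 0.29 for Il21r, -0.95 to 3.17 for Il1b, -0.56 to 0.60 for Il1r1 and -1.40 to 1.13 for Il10. In Il1r1 the sign turned without mutant 2 (-0.56) and without wt 2 (-0.32). In Il10 it turned by edgeR (0.27), by DESeq2 (0.28), without mutant 1 (1.13), without wt 1 (0.086), without wt 3 (0.0082) and with the block (0.0082).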
